A study of Mus musculus with 6 samples.

Results

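The genes described here are the serine proteases of the Prss and Tmprss families with St14, and inhibitors that act on such enzymes. The inhibitors are the Kunitz-domain Spint genes, the serpins and the WAP-domain Wfdc genes. All these genes were chosen by symbol from probe sets annotated to a single gene. This gave 128 probe sets for 127 genes, of 19937 genes in all. Of the 127, 56 genes were counted as proteases or relatives of proteases and 71 as inhibitors or relatives of inhibitors. The 71 include Serpina4-ps1, whose symbol marks a pseudogene. RNA came from mouse embryonic stem cells on 6 arrays. The first group, Trim71 knockdown, holds 3 arrays of cells that were transfected with a pool of 3 siRNAs against Trim71 and harvested after 72 h, and the other, control, holds 3 arrays that the sample labels describe as wild type. The protocol mentions a non-targeting siRNA, but the labels do not say whether the control arrays received it, nor which embryonic stem cell line was used or whether replicates were separate cultures. The tests thus rest on differences among arrays that could be technical copies.

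Most of these serine proteases cut proteins with a catalytic serine and are made as inactive precursors. Matriptase (St14) and the TMPRSS enzymes sit in the plasma membrane, and in epithelia matriptase and prostasin (Prss8) activate each other and are held in check by the Kunitz inhibitors HAI-1 (Spint1) and HAI-2 (Spint2). Most serpins trap their protease irreversibly by a loop that the protease cuts, while some, such as Serpinf1 and the collagen chaperone Serpinh1, inhibit no protease. WAP domains are small disulfide-bonded folds, found in inhibitors of neutrophil proteases and in secreted proteins of the epididymis.

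After Trim71 knockdown 4 proteases rose and 3 genes of the inhibitor families fell, while 0 proteases fell and 0 inhibitor-family genes rose. At an unadjusted p under 0.05, limma gave 11 of 56 proteases (19.6%) and 10 of 71 inhibitors (14.1%), against 19.0% of all genes. The proteases were Prss42 (1.82-fold higher), Tmprss13 (1.57-fold), Prss52 (1.45-fold) and Tmprss11f (1.25-fold). The inhibitor-family genes were Wfdc2, at 55.9% of the control level, Serping1 at 79.3% and Serpinf1 at 81.6%. A call is an adjusted p under 0.05 in limma, with Benjamini-Hochberg adjustment over all 19937 genes. The 7 calls make up 5.51% of the 127 genes, and 5.53% of all genes were called. Among genes above the median signal, 2 of 13 members (15.4%) were called, against 9.24% of all such genes, and at or below it 5 of 114 members (4.39%), against 1.83%. By direction, 4 of 56 proteases (7.14%) were higher, against 3.39% of all genes, and 3 of 71 inhibitors (4.23%) were lower, against 2.15% of all genes. These counts are small, and no call about either family as a group is made from them. The bulk RNA does not tell a change in the number of cells that express a gene from a change of its RNA per cell.

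The regions around the annotated starts of 4 genes are shown, because Prss42 and Wfdc2 had the largest called change in each direction and Spint1 and Spint2 are the matriptase inhibitors. They are RefSeq sequences of build GRCm38.p6, 5′ to 3′ on the gene's strand, 300 bases each. Capitals mark matches on either strand to CCAAT, to the GC box GGGCGG, or to the TATA box letters TATAAA, which occur in none of these 4. The regions are chr9:110797935-110798234, plus strand, for Prss42, chr2:164562465-164562764, plus strand, for Wfdc2, chr2:119237110-119237409, plus strand, for Spint1, and chr7:29281928-29282227, minus strand, for Spint2.
Prss42: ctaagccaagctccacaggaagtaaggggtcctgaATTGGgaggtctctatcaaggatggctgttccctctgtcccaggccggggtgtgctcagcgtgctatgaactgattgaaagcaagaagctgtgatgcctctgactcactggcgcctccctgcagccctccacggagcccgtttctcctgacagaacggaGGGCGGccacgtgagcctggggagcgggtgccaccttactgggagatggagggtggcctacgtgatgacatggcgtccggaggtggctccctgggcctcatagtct
Wfdc2: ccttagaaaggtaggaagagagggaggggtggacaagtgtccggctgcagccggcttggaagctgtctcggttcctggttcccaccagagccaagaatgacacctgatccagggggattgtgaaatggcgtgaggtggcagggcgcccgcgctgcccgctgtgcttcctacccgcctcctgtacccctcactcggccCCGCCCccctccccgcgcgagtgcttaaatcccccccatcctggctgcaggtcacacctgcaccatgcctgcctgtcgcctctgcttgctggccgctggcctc
Spint1: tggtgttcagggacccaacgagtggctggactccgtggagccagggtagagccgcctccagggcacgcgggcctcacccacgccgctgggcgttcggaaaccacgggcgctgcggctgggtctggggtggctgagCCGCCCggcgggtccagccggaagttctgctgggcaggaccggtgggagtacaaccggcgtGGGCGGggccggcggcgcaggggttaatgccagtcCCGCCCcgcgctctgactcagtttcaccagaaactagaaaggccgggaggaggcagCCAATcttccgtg
Spint2: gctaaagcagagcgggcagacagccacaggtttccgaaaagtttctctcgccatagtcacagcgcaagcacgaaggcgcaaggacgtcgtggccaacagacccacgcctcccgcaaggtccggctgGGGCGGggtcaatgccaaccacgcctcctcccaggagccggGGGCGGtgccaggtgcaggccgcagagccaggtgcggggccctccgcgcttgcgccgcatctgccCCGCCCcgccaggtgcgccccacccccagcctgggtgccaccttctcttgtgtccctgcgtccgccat

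The 4 regions hold 12 CpG dinucleotides for Prss42, 16 for Wfdc2, 28 for Spint1 and 26 for Spint2. The other called genes with a listed region, Tmprss11f and Serpinf1, had 3 each, and the median of the 4 called genes with a listed region was 7.5. A start region was listed for 100 of the 127 genes, and its median CpG count was 4, against 7 over 27025 genes. Among the 9 listed members with a signal above the median of all genes, the median was 16. GGGCGG was found in 18.0% of the 100 regions, against 35.9% of all regions, and in 77.8% of those 9. CCAAT was found in 39.0% of the members' regions, against 37.9% of all, and TATAAA in 19.0%, against 14.2%. A match is only a run of letters in the region.

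The targeted gene was lower on the knockdown arrays. Trim71 averaged 8.98 ± 0.025 log2 units on the knockdown arrays and 10.50 ± 0.018 on the control arrays (SD, n = 3 each), which leaves 34.9% of the control level (adjusted p = 2.8e-05 in limma, exact two-sided permutation p = 0.1, the smallest that 3 against 3 arrays allow). Markers of embryonic stem cells were bright on all arrays, with mean log2 signals from 10.10 for Zfp42 to 12.96 for Dppa5a. Of these 8 markers, 1 rose (12.5%, against 5.69% of all genes above the median signal), Zfp42 by 0.25 (adjusted p = 0.0232 in limma). Values were higher without overlap for 5 (62.5%, against 14.7% of all genes). Of the 9968 genes above the median signal, where all 8 markers lie, 2203 were higher without overlap. Among all genes above the median signal, 38.3% did not overlap in either direction. The 7 markers other than Zfp42 did not pass, with log2 fold changes from 0.02 to 0.15. Knockdown array 3 differed from the others, with an upper quartile of 8.42, against 8.32 and 8.33 on the other knockdown arrays and 8.32 to 8.35 on the control arrays. Among members at or below the median signal it was the lowest knockdown array for 51.8%, and among those above it for 15.4%, against 52.9% and 10.5% of all genes in these classes.

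Most of these genes gave little signal. Of 127, 13 had a mean log2 signal above the median of all genes (6.70), and 27 lay in the lowest decile of all genes. The median was 4.93 for the members, 5.45 for the proteases and 4.49 for the inhibitors. The deposited values carry no detection call, and probe sets differ in how well they bind, so the level of one gene cannot be set against that of another. The 13 brighter genes were St14, Prss8, Prss41, Prss35 and Prss16 among the proteases, and Spint1, Spint2, Serpinb6a, Serpinb6c, Serpinb9b, Serping1, Serpinh1 and Wfdc2 among the inhibitor families. All 4 proteases that rose lay below the median of all genes, and 2 of the 3 inhibitor-family genes that fell lay above it.

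**Figure D1:**
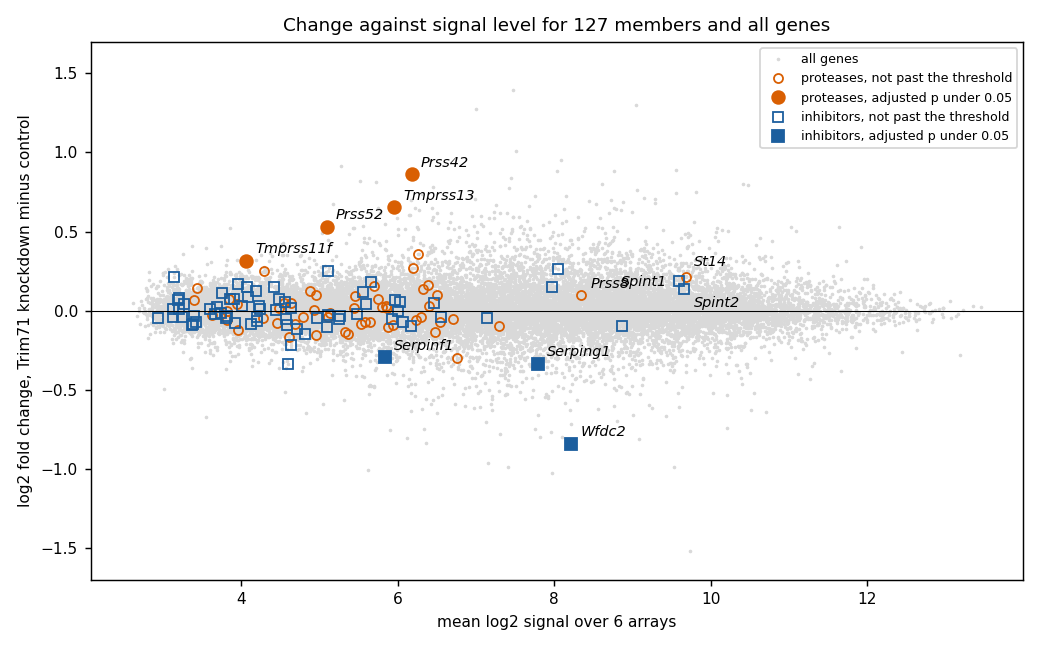
The log2 fold change, Trim71 knockdown minus control, of 127 genes (orange proteases, blue inhibitor families, filled where the adjusted p is under 0.05) and of all genes (grey) against the mean log2 signal over 6 arrays. The 4 filled protease points lie at signals from 4.07 to 6.18, Wfdc2 lies at 8.22, and most members crowd around no change at low signal.

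Prss42, a protease of the testis that takes part in mouse sperm formation, read 6.59, 6.50 and 6.76 on the knockdown arrays, against 5.76, 5.79 and 5.71 on the control arrays. The groups did not overlap, and each knockdown array was above every control array by a clear margin. Its log2 fold change was 0.86 ± 0.072 SE (adjusted p = 0.00185 in limma). Any 5 of the 6 arrays still gave a call, with an adjusted p of at most 0.0169. Of 8 markers of male germ cells, 0 passed in limma and 2 (25%, against 19% of all genes) had an unadjusted p under 0.05. These were Ddx4 and Sycp3, both at −0.20. The other 6 had log2 fold changes from −0.08 to 0.09. The summed signal of the 8 was 1156 to 1186 on the knockdown arrays and 1231 to 1361 on the control arrays. Without Ddx4 and Sycp3, left out after their values were seen, the sum of the other 6 was 241 to 274 on the knockdown arrays and 251 to 263 on the control arrays. The groups then overlapped, but the 2 left out were those that differed, so no conclusion is drawn from that overlap.

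Prss42 lies on chromosome 9 at one end of a row of 6 protease genes. Its neighbours Prss44, Prss43, Prss45, Prss46 and Prss50, in that order, had log2 fold changes of 0.02, −0.04, 0.09, 0.05 and 0.03, and none passed (lowest adjusted p = 0.707). On the other side Myl3, Pth1r and Ccdc12 had values of 0.17, 0.21 and −0.20 and did not pass either. The Prss genes of the row are paralogs, and probes that bind more than 1 of them would blur differences between them.

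Prss52, on chromosome 14 beside Prss51 and Prss55, read 5.21, 5.36 and 5.51 on the knockdown arrays, against 4.67, 4.75 and 5.07 on the control arrays. The groups did not overlap, but control array 3 came close to the lowest knockdown array. Its difference on the log2 scale was 0.53 ± 0.117 SE (adjusted p = 0.043 in limma). Omitting knockdown array 1, 2 or 3 gave adjusted p-values of 0.0538, 0.132 and 0.0836, and omitting control array 1 or 2 gave 0.153 and 0.147, so the call held in 1 of 6 such fits, the one without control array 3. Repeated quantile normalization also ended the call (adjusted p = 0.0521). Prss51 and Prss55 had log2 fold changes of −0.06 and 0.13 and did not pass.

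The other 36 Prss genes were not called, and 23 of the 38 differed by less than 0.1 on the log2 scale in either direction. The median log2 fold change of the 38 was 0.01, and that of all genes 0.00. Prss35, a relative that has lost the catalytic serine and is expressed in the ovary, read 6.48, 6.68 and 6.67 on the knockdown arrays, against 7.01, 6.85 and 6.88 on the control arrays. The groups did not overlap, and knockdown was lower, at −0.30 ± 0.073 SE, with an adjusted p of 0.0612 in limma. Prss8, the membrane-anchored prostasin, read 8.47, 8.26 and 8.46 on the knockdown arrays, against 8.21, 8.36 and 8.34 on the control arrays, with overlapping groups and a log2 fold change of 0.10 ± 0.075 SE. Prss41 at −0.10 and Prss16, a protease of the thymus cortex, at −0.05 also overlapped. Prss22, Prss23 and Prss38, named after their values were seen, had groups that did not overlap and log2 fold changes of 0.27, 0.16 and 0.25 (adjusted p = 0.161, 0.134 and 0.0888). In all, the groups did not overlap for 14 of 56 proteases (a share of 25.0%), 12 higher and 2 lower, against 25.5% of all genes, 14.7% higher and 10.8% lower. Among inhibitors this held for 10 of 71 (14.1%), 6 higher and 4 lower.

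Tmprss13, a transmembrane protease of skin and other epithelia, read 6.32, 6.37 and 6.16 on the knockdown arrays, against 5.49, 5.61 and 5.79 on the control arrays. The groups did not overlap, and the lowest knockdown value was array 3. Knockdown minus control was 0.65 ± 0.089 SE on the log2 scale (adjusted p = 0.00941 in limma), and any 5 of the 6 arrays still gave a call, with an adjusted p of at most 0.0461. Its neighbours on chromosome 9 did not pass. Tmprss4, a related protease a few genes away, had a log2 fold change of 0.02.

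Tmprss11f, a member of the airway-trypsin-like subfamily, was dim, at the 12.5th percentile of signal over all genes. It read 4.11, 4.25 and 4.33 on the knockdown arrays, against 3.90, 3.92 and 3.93 on the control arrays. The control values lay close together and all knockdown values were above them. The log2 fold change was 0.32 ± 0.063 SE (adjusted p = 0.0311 in limma), and omitting knockdown array 2 gave an adjusted p of 0.111, while omitting control array 1, 2 or 3 gave 0.131, 0.117 and 0.0987. The 6 other genes of its row on chromosome 5, Tmprss11c, Tmprss11d, Tmprss11a, Tmprss11g, Tmprss11b and Tmprss11e, had log2 fold changes from −0.13 to 0.07 and none passed.

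Among the other membrane proteases, Tmprss12, a sperm protease, read 6.27, 6.38 and 6.68 on the knockdown arrays, against 6.03, 6.22 and 6.01 on the control arrays. The groups did not overlap and the log2 fold change was 0.36 ± 0.108 SE, with an adjusted p of 0.115 in limma. Tmprss5 differed by 0.14 ± 0.047 SE without overlap (adjusted p = 0.152). Tmprss6, which restrains hepcidin in the liver, and Tmprss11d overlapped, at −0.04 and −0.13. Of the 18 genes with a Tmprss symbol or St14, 2 rose (11.1%, against 3.39% of all genes) and 0 fell. This group was set by symbol and leaves out membrane-anchored Prss enzymes such as Prss8. Values were higher without overlap for 6 of the 18 (33.3%, against 14.7% of all genes), and the median log2 fold change was 0.02.

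**Figure D2:**
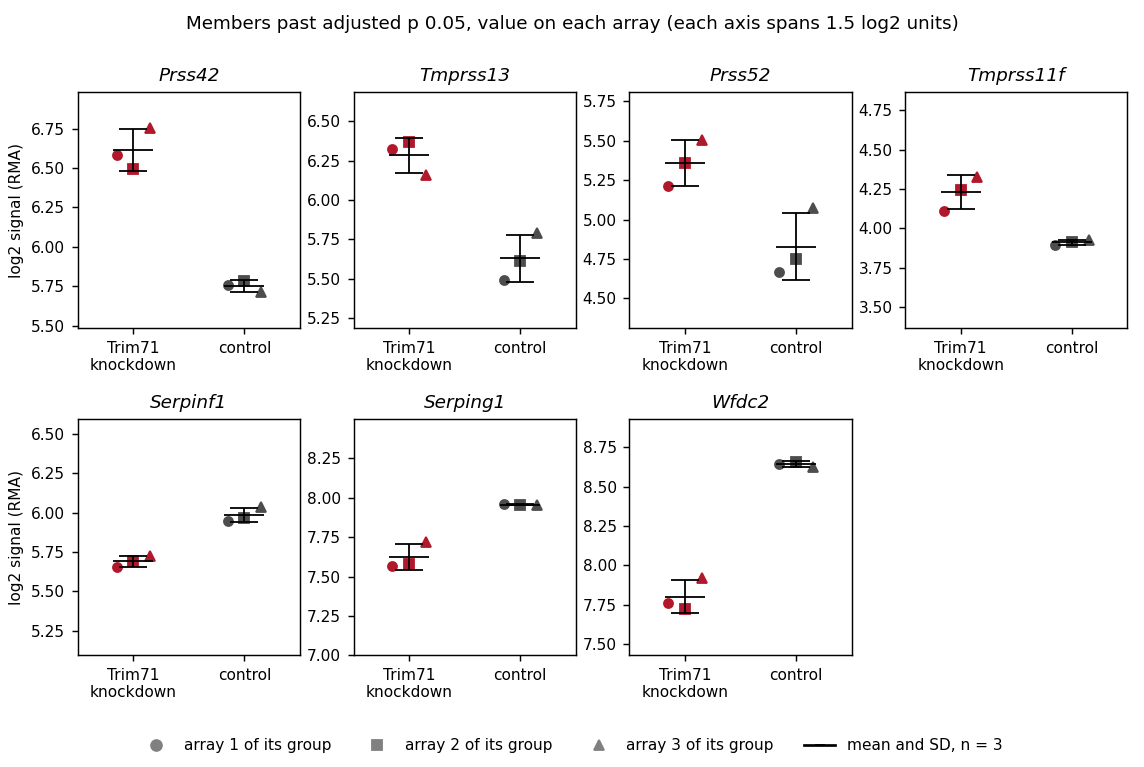
The log2 signal on each array of the 7 genes past an adjusted p of 0.05, Trim71 knockdown left and control right in each panel, with the mean and SD (n = 3 each) as bars. Every axis spans the same 1.5 log2 units, and in no panel do the groups overlap.

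The matriptase system had probe sets with a signal above the median of all genes, and its members differed little between groups. St14 read 9.75, 9.80 and 9.84 on the knockdown arrays, against 9.48, 9.60 and 9.66 on the control arrays. All 3 knockdown values were above the control values, and the log2 fold change was 0.21 ± 0.060 SE (95% confidence interval 0.07 to 0.35, adjusted p = 0.0961 in limma). Its inhibitor gene Spint1 read 9.58, 9.71 and 9.77 on the knockdown arrays, against 9.48, 9.54 and 9.47 on the control arrays, with a log2 fold change of 0.19 ± 0.062 SE (interval 0.04 to 0.33, adjusted p = 0.148). Spint2 read 9.72, 9.69 and 9.76 on the knockdown arrays, against 9.60, 9.60 and 9.55 on the control arrays, with a log2 fold change of 0.14 ± 0.048 SE (interval 0.03 to 0.25, adjusted p = 0.157). Neither Kunitz inhibitor overlapped between groups, and neither they nor St14 passed the test. For Prss8 the interval was −0.08 to 0.27. With a trended and robust prior St14, Spint1 and Spint2 had adjusted p-values of 0.0109, 0.0284 and 0.0351, and among brighter genes only, 0.0286, 0.0511 and 0.0443. The dim Spint3, Spint4 and Spint5, which lie in the WAP gene row, overlapped and ran from −0.04 to 0.15.

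Of 8 epithelial markers, all measured, 3 rose (37.5%, against 3.39% of all genes) and 0 fell. Of the 8, 7 lay above the median signal, where 5.69% of all genes rose. Those that rose were Esrp1, a splicing regulator, by 0.75, Grhl2, a transcription factor, by 0.57 and Cldn7, a claudin, by 0.40. The other 5 did not pass, with log2 fold changes from 0.13 to 0.36 and adjusted p-values from 0.0545 for Ovol1 to 0.373 for Cldn6. Among these Epcam, a matriptase substrate, was at 0.14 (adjusted p = 0.206). The summed signal of the 8 was 6179 to 6568 on the knockdown arrays and 5081 to 5383 on the control arrays. The part of these markers in the values of Tmprss13, St14 and the Spint genes was not tested.

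**Figure D3:**
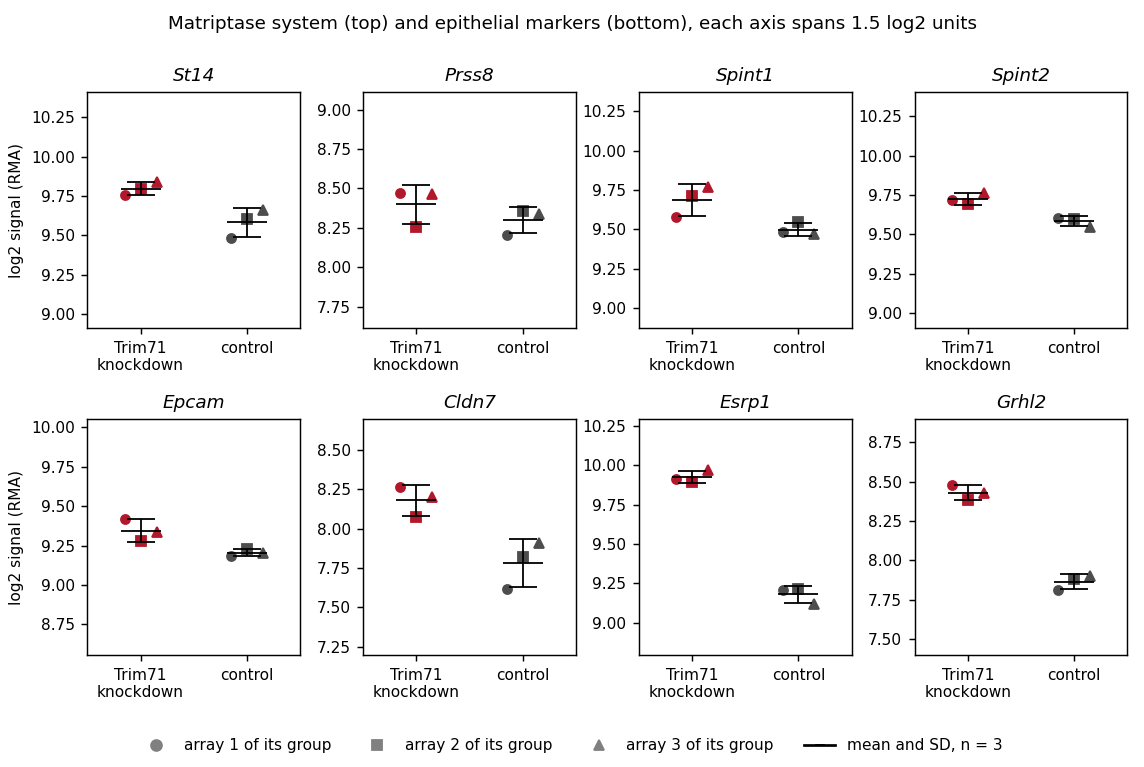
The log2 signal on each array of the matriptase system (top) and of 4 epithelial markers (bottom), Trim71 knockdown left and control right, with the mean and SD (n = 3 each). St14, Spint1 and Spint2 are higher by 0.21, 0.19 and 0.14 without overlap, while Prss8 overlaps.

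Among receptors and substrates of such proteases, 13 of 14 listed genes were measured. Of these, 1 rose (Cldn7) and 1 fell, 7.69% each, against 3.39% and 2.15% of all genes. F2r, which encodes the thrombin receptor PAR1, was at −0.32 ± 0.059 SE (adjusted p = 0.0231 in limma), with 9.11, 9.20 and 9.28 on the knockdown arrays, against 9.48, 9.52 and 9.57 on the control arrays. Met, the receptor of hepatocyte growth factor, whose precursor matriptase cleaves, was at −0.33 (adjusted p = 0.117). The median of the 13 was 0.11. Of 16 genes of plasminogen activation and coagulation measured of 17, 1 rose (6.25%, against 3.39% of all genes) and 0 fell, with a median of −0.06. The gene that rose was the clearance receptor gene Lrp1 at 0.33 (adjusted p = 0.0159 in limma). Of 42 other serine proteases measured of 46, 1 rose (2.38%, against 3.39% of all genes) and 2 fell (4.76%, against 2.15%). Htra1 rose by 0.30 (adjusted p = 0.0489), and the proprotein convertases Pcsk1 and Pcsk6 were at −0.74 (adjusted p = 0.00728) and −0.34 (adjusted p = 0.0138).

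Wfdc2, also called HE4, a secreted protein of the epididymis and of other epithelia, fell most of all members. It read 7.76, 7.73 and 7.92 on the knockdown arrays, against 8.64, 8.66 and 8.62 on the control arrays. The control arrays lay close together and every knockdown array was far below them. The log2 fold change was −0.84 ± 0.061 SE (adjusted p = 0.00169 in limma), a level 1.79-fold lower. Omitting any single array kept the call, with an adjusted p of at most 0.0131. The direction is opposite to that of the epithelial markers above.

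Wfdc2 opens a row of 13 WAP and Kunitz genes on chromosome 2. The other 12 had log2 fold changes from −0.34 to 0.15 and none passed. Those next to it were Spint3 at 0.15 and Wfdc6a at −0.34 with a standard error of 0.145 (adjusted p = 0.262), which varied widely within both groups. Wfdc16, named after its value was seen, was at −0.21 without overlap (adjusted p = 0.076). On the other side Pigt, Dbndd2 and Trp53tg5 ran from −0.09 to 0.02. Of all 18 Wfdc genes, 12 had negative and 6 positive log2 fold changes, with a median of −0.05, and 17 of the 18 had a signal at or below the median of all genes. The 2 probe sets of Wfdc3 gave log2 fold changes of 0.05 and 0.08, neither past the test over all probe sets.

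**Figure D4:**
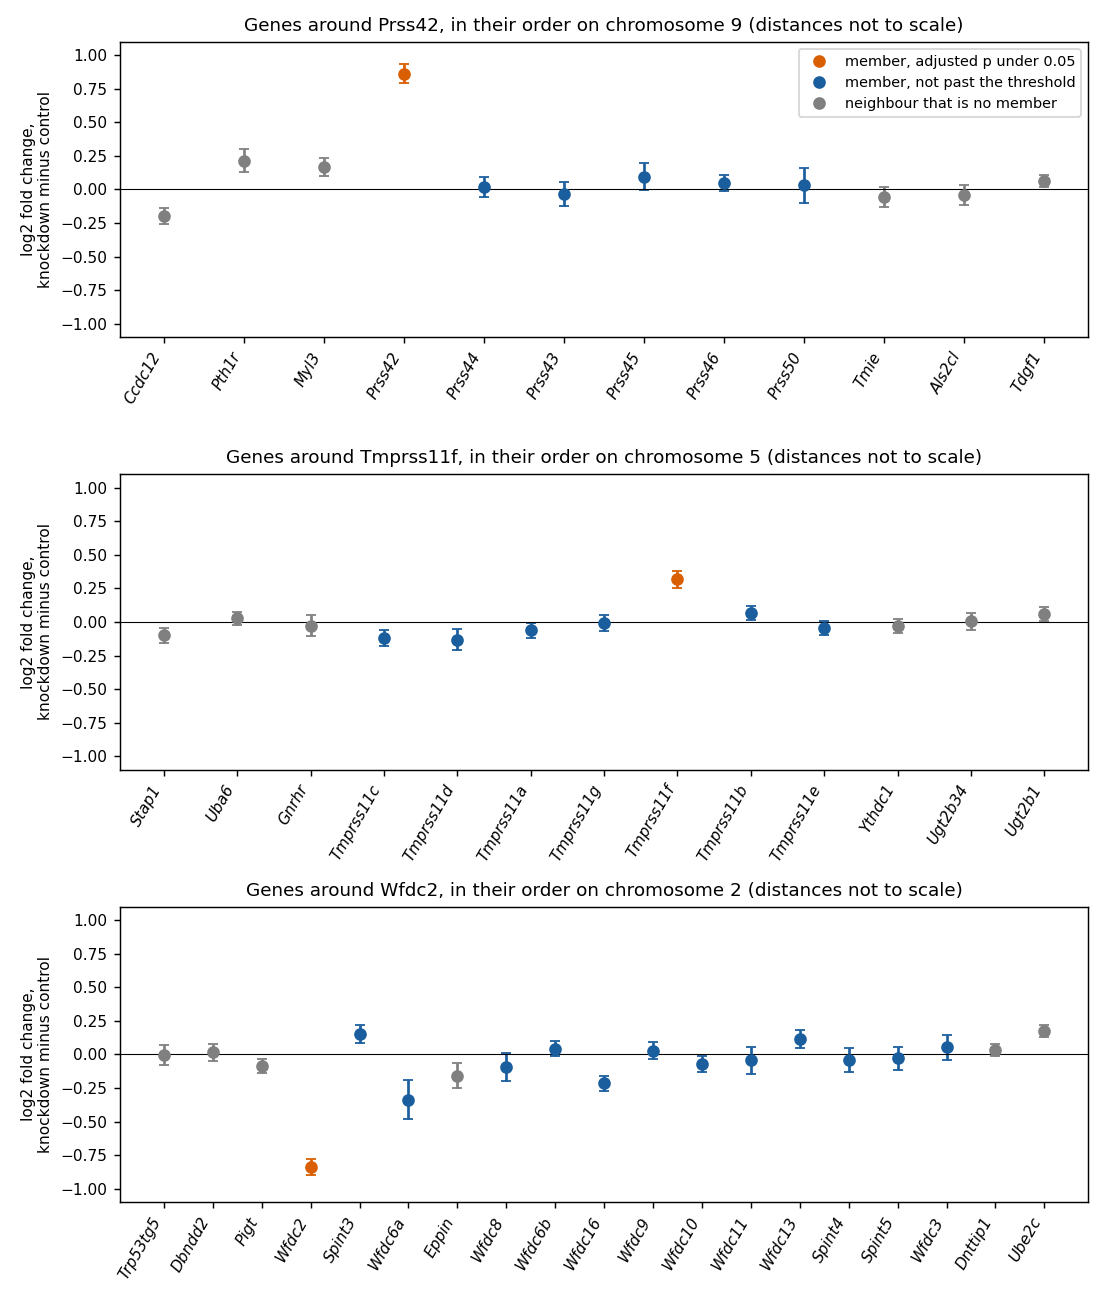
The log2 fold change, Trim71 knockdown minus control, with its SE, of the genes around Prss42, Tmprss11f and Wfdc2 in their order on the chromosome. Orange points (0.86, 0.32 and −0.84) passed an adjusted p of 0.05, and the blue and grey points beside them did not.

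Genes next to the 7 called genes were examined in the same way. Of the 3 nearest measured genes on each side that are not members, 42 in all, 0 were called in limma, against 5.53% of all genes. An unadjusted p under 0.05 was found for 8 of the 42, against 19% of all genes. The adjusted p-values of the 42 were at least 0.0674, for Ube2c beyond the WAP row. By gene order 96 of the 127 members lie in 17 rows on the chromosomes, and no row held more than 1 called gene. For gene order, RefSeq was used, and up to 5 other genes could stand between members of a row.

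Serping1 encodes the C1 inhibitor, which blocks the first proteases of the complement pathway and plasma kallikrein. It read 7.57, 7.58 and 7.72 on the knockdown arrays, against 7.96, 7.96 and 7.95 on the control arrays. The control arrays were nearly equal, and all knockdown arrays were lower. On the log2 scale the difference was −0.33 ± 0.055 SE (adjusted p = 0.0172 in limma). Omitting knockdown array 1, 2 or 3 gave adjusted p-values of 0.052, 0.0737 and 0.00891, and omitting control array 1, 2 or 3 gave 0.0865, 0.0808 and 0.0709.

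Serpinf1 encodes the secreted factor PEDF, which restrains blood vessel growth and inhibits no protease. It read 5.66, 5.69 and 5.72 on the knockdown arrays, against 5.95, 5.97 and 6.03 on the control arrays. The groups did not overlap and each was tight. The log2 fold change was −0.29 ± 0.049 SE (adjusted p = 0.0173 in limma), with adjusted p-values of 0.053, 0.0695 and 0.0203 without knockdown array 1, 2 and 3, and of 0.0738, 0.0784 and 0.0759 without control array 1, 2 and 3. Its neighbour Serpinf2, the inhibitor of plasmin, overlapped at −0.10 ± 0.101 SE. The remaining 5 genes of clades C to G and I were not called either, Serpini1, the neuronal inhibitor of tissue plasminogen activator, at 0.05.

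Serpinf1 and Serping1 are also expressed in fibroblasts, which serve as feeder cells for embryonic stem cells. Of 10 fibroblast markers, 1 fell (10%, against 2.15% of all genes), the smooth muscle actin gene Acta2 at −0.70. The other 9, collagens and Thy1 among them, had log2 fold changes from −0.09 to 0.04. The summed signal of those 9 was 556 to 633 on the knockdown arrays and 573 to 625 on the control arrays, and with Acta2 it was 909 to 984 on the knockdown arrays and 1074 to 1261 on the control arrays. The summed signal overlapped between groups without Acta2, and not with it. Acta2 was left out because it was called, so no conclusion is drawn from the overlap of the other 9. The part of Acta2 in the values of Serping1 and Serpinf1 was not tested. Serpinh1, the chaperone of procollagen, read 7.13, 7.15 and 7.08 on the knockdown arrays, against 7.13, 7.14 and 7.22 on the control arrays, with overlapping groups and a log2 fold change of −0.04 ± 0.050 SE (interval −0.16 to 0.07).

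No serpin of clade A or B was called. In clade A, the family of antitrypsin and antichymotrypsin, all 15 genes measured were below the median signal of all genes, 0 had groups without overlap, against 12.6% of all genes at or below that median, and the log2 fold changes ran from −0.08 to 0.15. In clade B, the serpins that stay inside cells, 24 genes ran from −0.09 to 0.26. Serpinb6a read 8.79, 8.76 and 8.90 on the knockdown arrays, against 8.86, 8.91 and 8.96 on the control arrays, with overlapping groups. Serpinb6c, next to it on chromosome 13, read 7.98, 8.06 and 8.49 on the knockdown arrays, against 7.97, 7.86 and 7.91 on the control arrays. Its groups did not overlap, but knockdown array 3 stood far above the others, and the log2 fold change of 0.26 ± 0.124 SE had an adjusted p of 0.314. Without that array its log2 fold change was 0.11. Serpinb9b, of the subfamily of granzyme inhibitors, was at 0.15 ± 0.061 SE without overlap (adjusted p = 0.245). Serpinb1a and Serpinb11, named after their values were seen, were at 0.25 and 0.21 (adjusted p = 0.0939 and 0.074). Some mouse clade A and B genes, such as the Serpina1 and Serpinb9 copies, are recent copies that probes may not separate. Genes without a probe set of their own, such as Prss1 and Serpina1a, are not members. Of the 7 probe sets that carry several symbols with a symbol of these families among them, 5 belong to Serpina1 or Serpinb9 copies. None of these 7 passed a test over all probe sets (lowest adjusted p = 0.638).

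Inhibitors with symbols other than those chosen here gave a further comparison. Some of them, such as Wap, Slpi and Tfpi, also have WAP or Kunitz domains. All 16 listed were measured, 3 fell (18.8%, against 2.15% of all genes) and 0 rose, with a median log2 fold change of −0.11. Spink1, the trypsin inhibitor of the pancreas, read 6.63, 6.43 and 6.62 on the knockdown arrays, against 7.14, 7.20 and 7.15 on the control arrays, without overlap, at −0.60 ± 0.065 SE (adjusted p = 0.00436 in limma). A2m, alpha-2-macroglobulin, which traps proteases of all classes, was at −0.43 (adjusted p = 0.00789), and the dim Spink10 was at −0.51 (adjusted p = 0.00352). The list of further inhibitors, like the members, was chosen with earlier results of these arrays known.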

How the data were processed

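RNA of mouse embryonic stem cells was measured on 6 Affymetrix arrays, 3 of Trim71 knockdown and 3 of control. The deposited table holds log2 expression values per probe set, made by the authors with RMA from the affy package, per the submitters' processing notes; software versions and genome build were not given in the sources used here. The RMA method corrects background and quantile-normalizes the arrays. Of 34760 probe sets, 21640 carried 1 gene symbol in GEO's platform annotation, 1321 several and 11799 none. Each of 19937 genes was represented by its brightest probe set, by the mean of 6 arrays. The 2 groups were compared with limma 3.58.1 (lmFit and eBayes, R 4.3.3), with Benjamini-Hochberg adjustment over all genes and a threshold of 0.05. The scripts were tested on simulated data. The number of arrays limits the precision. All 127 members matched RefSeq by Entrez ID, which gave the gene order (GRCm38.p6), summarised with pandas 2.3.3 in Python 3.11.15 and drawn with matplotlib 3.10.9.

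Genes were named if called, if their groups did not overlap at a log2 fold change of at least 0.3 in either direction, or if among the 4 brightest or the most changed of their family, which named 35 members. Neighbours on the chromosome were named for their position. Members, gene lists and tests were chosen with earlier results of these data known. Alternatives were a replicate block, leaving out each array, brighter genes only, a trended robust prior, array weights, averaged probe sets, repeated quantile normalization, median centring, no variance moderation, all probe sets and a threshold of 0.01.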

Additional observations from a re-analysis of the deposited data

How the results depend on the processing

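Of 503 values of named genes under the alternatives, 441 kept direction and side of the threshold, 32 lost the call, 13 gained one, 17 changed sign without a call and 0 reversed a call. Trim71 was called under every alternative run. As reported, 4 proteases were higher, 0 lower, 0 inhibitors higher and 3 lower. Leaving out 1 array gave 2 to 3 proteases higher and 0 to 0 lower. Among inhibitors it gave 0 to 1 higher (the pseudogene Serpina4-ps1 without knockdown array 3) and 1 to 3 lower. With genes at or above the median signal there was 1 protease higher (St14), 1 lower (Prss35) and 1 inhibitor higher (Spint2), with the dim genes not tested. The trended and robust prior gave 6 proteases higher (St14 and Tmprss12 added), 1 lower and 2 inhibitors higher (Spint1 and Spint2). Array weights gave 7 proteases higher, 1 lower and 2 inhibitors higher. Repeated quantile normalization gave 3 proteases higher (Prss52 lost), 1 lower and 4 inhibitors lower (Wfdc16 added). Median centring gave 1 protease lower. Without variance moderation 1 protease was higher. Testing all probe sets, or an adjusted p under 0.01, left 2 proteases higher and 1 inhibitor lower. Of all genes, 5.53% were called as reported, 10.9% with array weights and 2.07% without moderation. Of all probe sets, 1.15% were called when each was tested. The cause of these differences was not tested. With the replicate number as a block, 2 proteases were higher (Prss42 and Prss52) and 1 inhibitor lower (Wfdc2). Whether equal numbers mark paired arrays is not known. Deviations of same-numbered arrays from their group means correlated at −0.02, −0.15 and −0.24, and no array correlated best with its own number. Deviations from the means of so few arrays depend on each other, so these values cannot decide it. Low signal limits what can be seen for most of these genes.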
